A study of Mus musculus with 5 samples.

Results

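The nuclear genes of the mitochondrial respiratory chain were followed in mouse embryonic stem cell-derived cells over 3 days of differentiation, with and without MPA. They were taken as every gene on the array whose symbol marks it as a subunit of complex I (Nduf followed by a, b, c, s or v and a number), complex II (Sdha to Sdhd), complex III (Uqc symbols and Cyc1), complex IV (Cox4 to Cox8), ATP synthase, also called complex V (Atp5 symbols), or cytochrome c (Cycs). This rule uses symbols and no measured change, though it was chosen with earlier results of these data known. It gave 86 of the 18193 genes on the array: 35 for complex I, 4 for complex II, 12 for complex III, 1 for cytochrome c, 17 for complex IV and 17 for complex V. The symbols also bring in 3 complex III assembly factors (Uqcc1, Uqcc2 and Uqcc3), isoforms known from muscle, testis, lung or hypoxia, and Ndufa4, which is now usually placed in complex IV and is kept here where its symbol puts it.

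The cells were differentiated towards a pancreatic fate on plates coated with gelatin. There were 5 groups with 1 array each: untreated cells at day 5, day 6 and day 8, cells given 2 µM MPA from day 5 and taken at day 6, and cells given the same dose from day 5 and taken at day 8. All groups shared the same differentiation, and the untreated day 5 array precedes both treated ones. No genotype or strain was stated, and the labels do not spell out MPA. With 1 array per group there is no replicate error, so every difference between 2 arrays below is a difference between those arrays and carries no p-value.

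The respiratory chain sits in the inner mitochondrial membrane. Complex I takes electrons from NADH and complex II takes them from succinate, ubiquinone carries them to complex III, cytochrome c carries them on to complex IV, and complex IV passes them to oxygen. Complexes I, III and IV pump protons, and ATP synthase uses the return flow to make ATP. A small core of the subunits is encoded in mitochondrial DNA and the rest in the nucleus, so both genomes are needed for complexes I, III, IV and V, while complex II is wholly nuclear. Pluripotent cells are known to rely heavily on glycolysis, and differentiation is often accompanied by a shift towards respiration.

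Each array had been scaled to the same 2% trimmed mean, 500. The share of probe sets above the floor used here, a signal of 86.8, was between 46.7% and 51.9%. The ratio of the 3' to the 5' Gapdh probe set, a sign of RNA integrity and labelling, was between 1.08 and 1.57 and was highest on both day 8 arrays. The same ratio for Actb was 2.08 at day 5, 3.04 and 3.06 at day 6, and 2.81 and 2.71 at day 8. Summed signals of 12 pluripotency markers were 33903 at day 5 and between 3491 and 5704 on the other arrays. Of 12 pancreatic progenitor markers, 10 were on the array, with summed signals from 888 to 3563, and Pdx1 lay at or under a signal of 90.4 on every array, so the labelled direction of differentiation was only weakly visible in this list. Neural markers (13 on the array) summed to 14238 in the day 8 control and 4090 in the day 8 MPA array, and 8 smooth muscle and pericyte markers to 26153 and 49648. On the same arrays the pancreatic progenitor markers summed to 1648 and 3563, and 12 definitive endoderm markers to 11995 and 19453. Markers of several cell types thus moved with day and MPA, and their part in the results below was not tested. In such bulk RNA a change in the share of cells and a change in RNA per cell cannot be told apart.

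The promoters show what these genes share in sequence, which neither the symbols nor the signals used. RefSeq promoters (build GRCm38.p6, 250 bases before to 50 after the start site, 300 in all) were found for 70 of the 86 genes, 75 promoters in all. They were searched on both strands for the core motifs of 3 factors known from respiratory chain promoters: GCGCATGCG for NRF1, CCGGAAG for the ETS family, which includes the GABP (NRF2) factor, and AAGATGGCG for YY1. The NRF1 letters are nearly a palindrome, so that 1 place can match on both strands. Below are, for each complex, the promoter with a match whose gene was lowest on day 8 relative to day 5 in the controls, and that of the muscle isoform Cox7a1 as a contrast. Each is printed 5′ to 3′ along the gene, and capitals mark the matched letters, which for the ETS core read CTTCCGG where the match is on the other strand.
Ndufs4 (complex I, chr13:114388045-114388344, minus strand): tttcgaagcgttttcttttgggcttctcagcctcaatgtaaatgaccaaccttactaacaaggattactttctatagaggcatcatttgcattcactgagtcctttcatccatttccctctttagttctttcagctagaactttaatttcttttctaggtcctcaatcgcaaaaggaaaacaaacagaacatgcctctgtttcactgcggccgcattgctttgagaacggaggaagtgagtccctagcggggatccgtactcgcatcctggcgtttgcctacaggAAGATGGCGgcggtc
Sdhd (complex II, chr9:50603800-50604099, minus strand): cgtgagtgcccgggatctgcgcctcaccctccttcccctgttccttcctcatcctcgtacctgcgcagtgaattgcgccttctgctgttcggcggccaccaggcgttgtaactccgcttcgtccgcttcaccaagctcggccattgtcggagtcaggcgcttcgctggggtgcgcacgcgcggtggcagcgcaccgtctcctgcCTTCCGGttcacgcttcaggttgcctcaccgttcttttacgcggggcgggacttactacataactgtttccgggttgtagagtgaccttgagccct
Uqcrh (complex III, chr4:116075021-116075320, minus strand): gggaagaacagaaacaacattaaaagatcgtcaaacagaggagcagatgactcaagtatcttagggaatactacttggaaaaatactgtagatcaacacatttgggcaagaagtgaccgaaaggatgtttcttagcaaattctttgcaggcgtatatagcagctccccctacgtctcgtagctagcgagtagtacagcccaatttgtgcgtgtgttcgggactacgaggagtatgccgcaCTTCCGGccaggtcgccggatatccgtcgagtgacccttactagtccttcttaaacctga
Cox8a (complex IV, chr19:7217567-7217866, minus strand): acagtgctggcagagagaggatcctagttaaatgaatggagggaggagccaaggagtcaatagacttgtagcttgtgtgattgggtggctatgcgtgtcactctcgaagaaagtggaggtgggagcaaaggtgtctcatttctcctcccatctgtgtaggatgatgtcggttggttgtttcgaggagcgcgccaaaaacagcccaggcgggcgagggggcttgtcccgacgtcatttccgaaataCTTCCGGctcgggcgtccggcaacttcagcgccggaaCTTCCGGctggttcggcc
Atp5k (complex V, chr5:108434350-108434649, minus strand): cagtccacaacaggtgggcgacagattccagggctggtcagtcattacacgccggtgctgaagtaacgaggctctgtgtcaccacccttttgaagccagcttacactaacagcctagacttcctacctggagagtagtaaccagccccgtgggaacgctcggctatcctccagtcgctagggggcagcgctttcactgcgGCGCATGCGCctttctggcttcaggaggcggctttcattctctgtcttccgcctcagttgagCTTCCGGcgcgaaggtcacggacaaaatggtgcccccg
Cox7a1 (complex IV isoform, chr7:30183921-30184220, plus strand): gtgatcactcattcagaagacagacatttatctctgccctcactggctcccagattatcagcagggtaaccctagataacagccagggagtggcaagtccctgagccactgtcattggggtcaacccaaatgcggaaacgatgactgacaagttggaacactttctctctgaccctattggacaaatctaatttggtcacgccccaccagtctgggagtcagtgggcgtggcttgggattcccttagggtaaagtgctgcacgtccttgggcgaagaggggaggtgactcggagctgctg

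The search covered only the window around the start site, and apart from Cox7a1 these 6 promoters were picked for having a match. Their match positions therefore cannot show whether matches gather near the start site. Counting the start site as 0, matches in all respiratory chain promoters ran from -241 in Atp5l to 35 in Ndufs4. In the promoters shown, the YY1 core of Ndufs4 began at 35, the ETS core of Sdhd at -46 and that of Uqcrh at -10. Cox8a carried the ETS core at -5 and again at 32, and Atp5k carried overlapping NRF1 cores at -50 and -49 and an ETS core at 12. None of the 3 cores was found in the Cox7a1 window.

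Matches were more frequent among the respiratory chain promoters than among all promoters of the same length. The NRF1 core was in 8 of the 75 promoters (10.7%), against 1.75% of all 32851 promoters of the table and 2.70% of the 18006 belonging to genes on the array. The ETS core was in 17 (22.7%), against 8.86% and 13.0%. The YY1 core was in 6 (8.00%), against 1.40% and 2.10%. In Ndufs4, Ndufa9, Ndufs7, Atp5j2 and Ndufc1 the YY1 match began after the start site, at 35, 29, 24, 23 and 22. In Atp5j it began at -88. The YY1 letters hold an ATG, and whether such matches are coding sequence was not tested. CpG content moved with these counts: the respiratory chain promoters held a median of 19 CpG dinucleotides, those of genes on the array 16 and all promoters 7, and its part in the counts was not tested. Median GC content was 58.3% in both the respiratory chain promoters and those of genes on the array, and 52.7% in all promoters. At least 1 of the 3 cores was in 34.7% of the respiratory chain promoters, against 16.8% of those of genes on the array and 11.4% of all. By complex it was in 66.7% of the 3 complex II promoters, 44.4% of the 18 of complex V, 37.5% of the 8 of complex III, 27.3% of the 33 of complex I and 3 of the 12 of complex IV. The 4 isoform promoters (Cox6b2, Cox7a1, Cox7b2 and Cox8b) had none, with a median of 8.5 CpG, a count too small to set beside these shares.

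**Figure D1:**
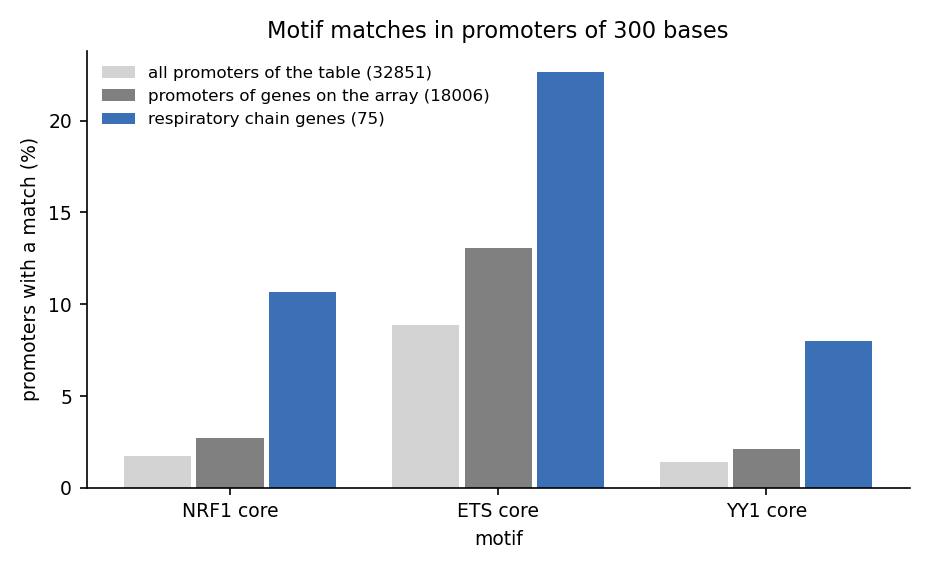
Percentage of promoters of 300 bases (vertical axis) with a match to the NRF1, ETS or YY1 core on either strand, for all 32851 promoters, the 18006 of genes on the array and the 75 of respiratory chain genes. The respiratory chain bar is the tallest for each motif, at 10.7%, 22.7% and 8.00%.

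Most respiratory chain genes above the floor on all arrays kept their signals within 2-fold. Of the 86, 79 were above the floor on all 5 arrays, and for these the highest signal divided by the lowest had a median of 1.45, was under 1.5 for 46 genes, between 1.5 and 2 for 28, and 2 or more for 5. This ratio was not computed over all genes or over equally bright ones, so it shows no steadiness particular to the group. The other 7 of the 86 were dim. Cox7b2, Cox8b and the probe set that names Ndufb4 were under the floor on every array, Cox7a1 was above it on 4, Cox4i2 and Cox6a2 on 3 and Ndufa4l2 on 2. Of the 79, 46 were lower on both day 8 arrays than on the other 3, compared with 20.6% of the 9091 genes above the floor on all arrays, and 53 were lowest on the day 8 MPA array, compared with 25.3%. The highest signal was at day 5 for 40 of the 79 (21.7% of all genes).

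In the untreated cells the respiratory chain genes were, as a group, slightly lower at each later day. From day 5 to day 6, 54 of 83 measured genes were lower (48.4% of all genes), with a median difference in log2 signal of -0.06 (0.02 over all genes). Only 2 were lower by 1.5-fold or more and 2 higher (12.4% and 14.5% of all genes). From day 6 to day 8, 66 of 83 were lower (48.7% of all genes), the median was -0.24, and 7 were lower and 2 higher by 1.5-fold or more (16.0% and 17.2% of all genes). From day 5 to day 8, 63 of 82 were lower (47.4% of all genes), the median was -0.29 against 0.04 over all genes, and 13 were 1.5-fold or more lower while none was higher by that much (16.6% and 20.2% of all genes). Signals of 40 of the 79 genes stepped down at both intervals, from day 5 to 6 and from day 6 to 8 (19.4% of all genes). The 1864 genes as bright as these on average were lower from day 5 to day 8 in 56.0% of cases, with a median of -0.07. Relative to all genes, the day 8 against day 5 median was -0.34 with the deposited scaling and -0.17 after quantile normalization, so its size depends on how the arrays are set against each other. Where a gene had other probe sets above the floor, 45 of 65 such probe sets (69.2%) went the same way from day 5 to day 8 as the one chosen, and 41 of 71 (57.7%) from day 5 to day 6.

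**Figure D2:**
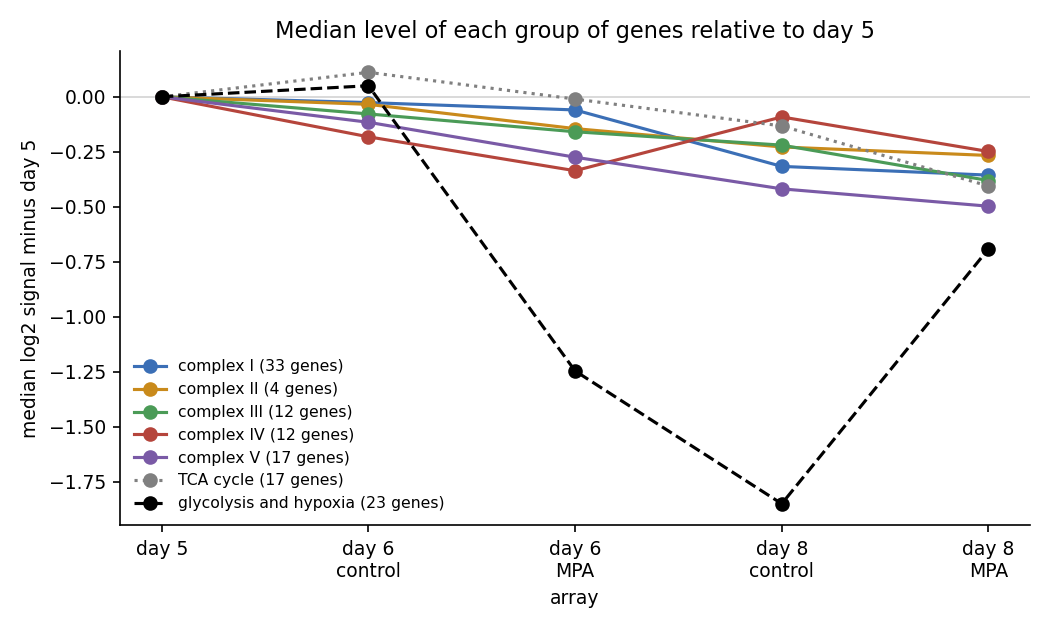
Median log2 signal of each group of genes minus its day 5 value (vertical axis) on the 5 arrays (horizontal axis), over the genes that passed the floor on each of them, 1 array per point and no error bars. Complex V is the lowest of the complexes on both day 8 arrays (-0.42 and -0.50), whereas the glycolysis and hypoxia genes move on a larger scale, from -1.85 in the day 8 control to -0.69 with MPA.

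Set side by side, the complexes had different medians over the same interval. Between day 5 and day 8 the median was -0.42 for complex V, -0.32 for complex I, -0.23 for complex II, -0.22 for complex III and -0.09 for complex IV. Lower on day 8 were 16 of 17 genes of complex V, 24 of 33 of complex I, 3 of 4 of complex II, 9 of 12 of complex III and 10 of 15 of complex IV. The step from day 5 to day 6 was nearest 0 for complex I, with 17 of 34 genes lower and a median of -0.00, and most negative for complex IV, with 13 of 15 lower and a median of -0.17. The step from day 6 to day 8 was -0.27 for complex I, -0.32 for complexes II and V, and -0.17 for complexes III and IV. Genes of a complex share their arrays and are not replicates, so these medians stand side by side without a test. The complex IV value rests on its probe sets: relative to all genes it was -0.13 from day 5 to day 8, -0.66 without probe sets that may bind several transcripts, and -0.03 after quantile normalization. Quantile normalization brought the others to -0.20 for complex I, -0.17 for II, -0.12 for III and -0.28 for V, each less negative than with the deposited scaling.

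**Figure D3:**
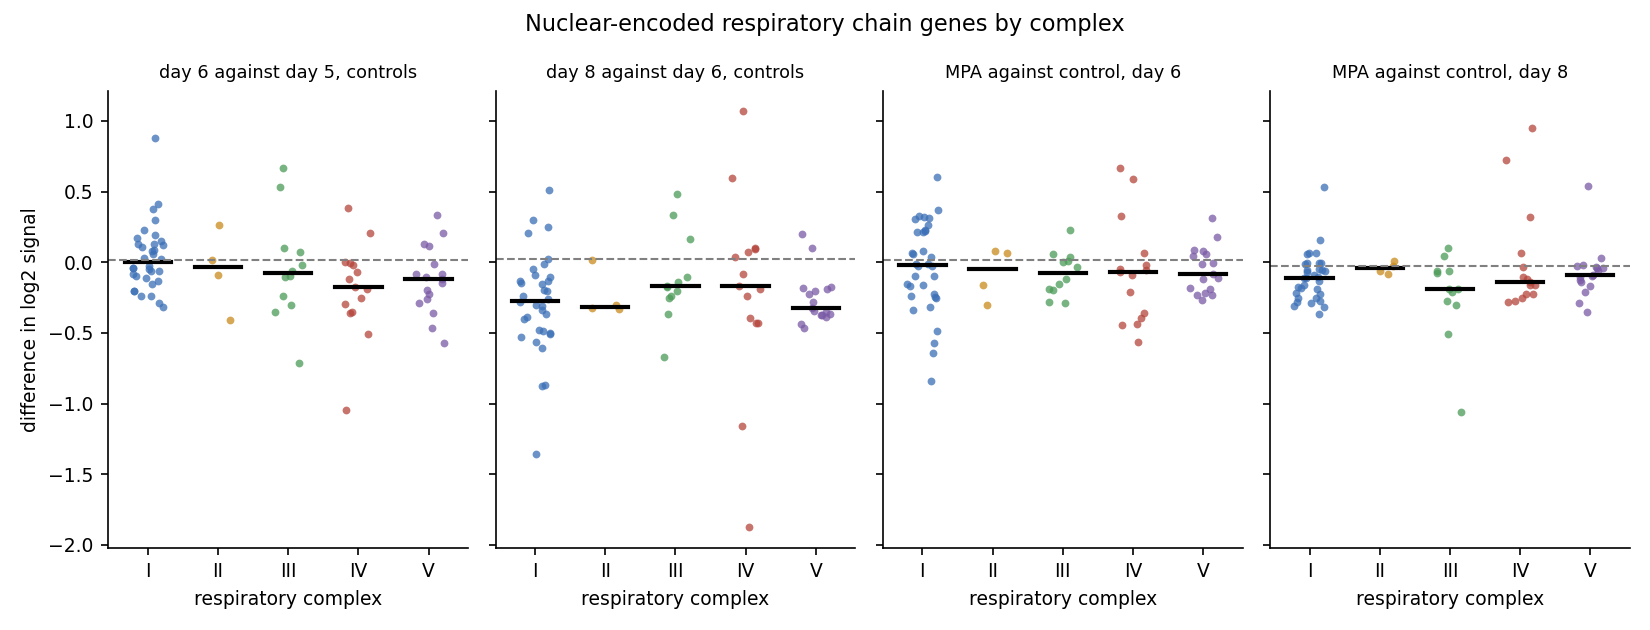
Difference in log2 signal between 2 arrays (vertical axis) for each respiratory chain gene (points) by complex (horizontal axis), with the median of the complex (black bar) and of all genes (dashed line), 1 array per group. In the day 8 against day 6 panel each median lies under the dashed line, at -0.27, -0.32, -0.17, -0.17 and -0.32 for complexes I to V.

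Complex I has a matrix arm that oxidises NADH and a membrane arm that pumps protons. On day 8, relative to day 5, 10 of 14 matrix arm genes and 13 of 18 membrane arm genes were lower, with medians of -0.36 and -0.27. Ndufv3, an accessory subunit of the NADH-binding module, showed the largest difference of the complex, with signals of 8772 at day 5, 10798 in the day 6 control, 6018 in the day 6 MPA array, 4205 in the day 8 control and 6092 in the day 8 MPA array. Its day 8 control was the lowest array, 2.09-fold under day 5, and both MPA arrays lay between the controls of the 2 days. Ndufb3, a small accessory subunit of the membrane arm, gave 6021 at day 5, 5831 and 5462 at day 6 without and with MPA, and 3194 and 3087 at day 8. Both its day 8 arrays were far below the other 3, at 1.89-fold from day 5 to day 8 in the controls. Ndufs4, an accessory subunit whose loss causes Leigh-like disease, was at 4323, 3476 and 3116, and then 2757 and 2437, in the same order. It stepped down in the controls and was lower with MPA on both days, and its day 8 control was 1.57-fold under day 5.

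The subunits that carry the electrons in complex I were not alike over time. Ndufv1, which binds NADH and the flavin, was at 5079, 5178, 6069, 4731 and 4056 in the order day 5, day 6 control, day 6 MPA, day 8 control and day 8 MPA, an order kept in the lists of 5 values that follow. Ndufs1, the largest iron-sulfur subunit, gave 3399, 3984, 4650, 3328 and 2918. In both, on the probe sets used, the day 6 MPA array was the highest and the day 8 MPA array the lowest. From day 5 to day 8 in the controls Ndufv1 was -0.10 in log2 signal, and its other bright probe sets gave -0.28 and 0.22. On the latter the day 8 control was the highest array (5724) and the day 8 MPA array the lowest (3636). The probe sets of Ndufv1 thus differ in direction over time. Ndufs7, which holds the last iron-sulfur cluster before ubiquinone, gave 5251, 6807, 6058, 6142 and 4767, so its day 8 control was 1.17-fold above day 5. Its other probe set was lower on day 8 (4236 and 3176, a log2 difference of -0.42), and the direction over time is therefore unsettled for Ndufs7, whereas both probe sets were lower with MPA at both days. Of the other iron-sulfur subunits, Ndufs8 was -0.48 and Ndufv2 -0.32 in log2 signal from day 5 to day 8. Other bright Ndufv2 probe sets gave -0.29 and 0.10, so its probe sets differ in direction as well. Genes higher at day 8 than at day 5 in the controls included Ndufb1 (0.30 in log2 signal), Ndufb9 (0.27), Ndufa2 (0.26) and Ndufa5 (0.22). None of them reached 1.5-fold.

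Complex II is the succinate dehydrogenase of the citric acid cycle. On the probe sets used, its catalytic subunits were nearly level from day 5 to day 8: Sdha, the flavoprotein, was at 5116, 6156, 6438, 4897 and 4921. Sdhb, the iron-sulfur subunit, was at 7613, 7714, 8171, 7808 and 7499, a spread of 1.09-fold over all 5 arrays. The membrane anchors were lower there. Sdhd gave 5420, 4093, 3666, 3263 and 3203, with day 5 above the other 4 arrays and a day 8 control 1.66-fold under it. Sdhc gave 2658, 2501, 2026, 2024 and 1909, 1.31-fold lower in the day 8 control than at day 5. Other probe sets above the floor differed from this for Sdha (-0.27) and for Sdhc (0.39, a dim one), and were alike in direction for Sdhd (-0.76). With only 4 genes, the median of complex II changed with the probe sets: relative to all genes it was -0.27 from day 5 to day 8, and -0.08 with the mean over all probe sets of a gene.

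In complex III the small subunits were lower with time and the assembly factors were not. Uqcr10, one of the small subunits, gave 5042, 4090, 3989, 3167 and 2784, and its day 8 control was 1.59-fold under day 5. Uqcrh, the hinge protein, gave 16661, 13084, 11471, 11883 and 12734, with day 5 the highest array and the day 8 control 1.40-fold lower. The other Uqcrh probe set was 0.34 higher in log2 signal on day 8, so the 2 probe sets differ in direction. Of the redox subunits, Uqcrfs1, the Rieske iron-sulfur protein, was 1.24-fold lower on day 8 than on day 5 (6344 and 5119). Cyc1, cytochrome c1, was 1.20-fold lower (8315 and 6922). The small subunits lay on either side of these, with Uqcr11 at 1.33-fold lower, Uqcrq at 1.17-fold and Uqcrb at 1.16-fold. Uqcc1, Uqcc2 and Uqcc3, which help to make cytochrome b, were all higher on day 8, by 0.44, 0.07 and 0.47 in log2 signal. A second Uqcc1 probe set above the floor was lower (-0.66), and so was one for Uqcc2 (-0.11). Cycs, the soluble carrier to complex IV, was nearly level in the controls on the probe set used (19390, 18614 and 18359 at days 5, 6 and 8). Its other 2 bright probe sets were lower on day 8 than on day 5 (-0.77 and -0.28), so the size for Cycs depends on the probe set.

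Complex IV held both steady and variable genes. Cox4i1, the common form of the regulatory subunit, gave 20754, 18170, 17302, 19409 and 18022, and Cox6a1, a common small subunit, 51629, 50954, 50306, 54572 and 48752. Both stayed within a narrow band and were slightly lower with MPA at both days. Cox5a, which binds near Cox4i1, gave 23621, 27307, 28629, 24283 and 20743 on the probe set used, with the day 8 MPA array lowest. From day 5 to day 8 in the controls this was 0.04 in log2 signal. Its other bright probe sets gave -0.62 and 0.01 there, so the change of Cox5a over time depends on the probe set. On the probe sets used, 3 common subunits were lower by 1.5-fold or more on day 8 than on day 5. Cox8a gave 10975, 9193, 6746, 6840 and 6126, Cox7a2 gave 42809, 37996, 29650, 28268 and 25636, and Cox6c gave 26790, 20886, 20168, 17740 and 16382. In each of the 3 the day 8 MPA array was the lowest and day 5 the highest. Another bright probe set was also lower on day 8 for Cox8a (-0.80) and Cox7a2 (-0.75). For Cox6c another one was only -0.18, with the day 6 MPA array highest (9469).

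Complex V was lower on day 8 in nearly all its parts. The catalytic F1 head (Atp5a1, Atp5b, Atp5c1, Atp5d and Atp5e) had 5 of 5 genes lower in the day 8 control than at day 5, with a median of -0.40, and the membrane part and stalks (FO) had 11 of 12, with a median of -0.45. Atp5b, the catalytic beta subunit, gave 24022, 19634, 17243, 16176 and 12699, with the day 8 MPA array the lowest and the control difference from day 5 to day 8 at 1.49-fold. Atp5a1, the alpha subunit, gave 16546, 16426, 14020, 12562 and 11510, but its other bright probe set was 0.16 higher in log2 signal on day 8. In FO, Atp5k, the e subunit of the dimer interface, gave 18530, 13447, 13840, 11772 and 10455, and its other 2 probe sets were also lower (-0.42 and -0.34). Atp5mpl and Atp5j, a small proteolipid and coupling factor F6, were 1.52-fold and 1.51-fold lower in the day 8 control. The only gene of the complex higher on day 8 was Atp5o, a stalk subunit, at 8165 and 8966. Atp5g1, Atp5g2 and Atp5g3 encode the same mature ring protein from separate loci. All 3 were lower on day 8 than on day 5, by 1.45-fold, 1.40-fold and 1.34-fold.

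One day of MPA left the group near its control. At day 6, 50 of 83 measured genes were lower with MPA (48.5% of all genes), with a median log2 difference of -0.05 against 0.02 over all genes, and 2 were lower and 3 higher by 1.5-fold or more (10.8% and 12.8% of all genes). Among the genes as bright as these, 58.2% were lower, with a median of -0.05. Quantile normalization turned the split, with 36 genes lower and a median of 0.03 relative to all genes, and median centring gave 62 lower, so the day 6 direction depends on the scaling. The medians were -0.02 for complex I, -0.05 for II, -0.08 for III, -0.07 for IV and -0.08 for V. The largest differences were within complex I and IV. Ndufv3 (above) was 1.79-fold lower, and Ndufb2, a membrane arm subunit, 1.56-fold lower with signals of 4257 and 2729. Its other bright probe set was also lower (-0.87). Higher by 1.5-fold or more were Cox7a1, Ndufb1 (163 and 249) and Cox7c (112 and 169), all of them dim on the probe sets used.

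After 3 days of MPA the direction was shared by more of the genes, while the size stayed small. At day 8, 68 of 82 measured genes were lower with MPA (51.9% of all genes and 58.4% of those as bright as these). The median was -0.11, against -0.02 over all genes and -0.06 over the equally bright ones. Lower by 1.5-fold or more was 1 gene, Uqcc1, and higher by that much were 2, Cox6b2 and Cox6a2 (11.2% and 11.4% of all genes). Under the alternatives that kept the member list and the probe sets, between 62 and 70 genes were lower with MPA, and 46 without probe sets that may bind several transcripts. That last setting holds fewer genes, with 62 members in the limma fit described below, against 83. With the probe sets used throughout, lower with MPA were 28 of 33 genes of complex I, 3 of 4 of complex II, 10 of 12 of complex III, 11 of 15 of complex IV and 15 of 17 of complex V. The medians were -0.11, -0.04, -0.19, -0.14 and -0.09. In complex I the membrane arm was the more uniform, with 17 of 18 genes lower (10 of 14 in the matrix arm).

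Some electron carriers and catalytic subunits were among the lower genes at day 8. Cycs was at 18359 in the control and 12960 with MPA, 1.42-fold lower, although it had been 1.14-fold higher with MPA at day 6 (18614 and 21297). Of its other probe sets above the floor at day 8, both were lower with MPA (-0.32 and -0.54). Uqcrq, a small subunit of complex III that contacts cytochrome b, was also 1.42-fold lower (5044 and 3542), after being 1.17-fold higher at day 6. Atp5b was 1.27-fold lower with MPA at day 8 and 1.14-fold lower at day 6. Uqcc1 gave 315, 339, 353, 427 and 205, 2.08-fold lower with MPA at day 8. Its second probe set gave 181 and 76.7 there, the latter under the floor, a log2 difference of -1.06 that is a bound. Higher with MPA at day 8 were Atp5d, the delta subunit of F1, at 13077 and 18996 (0.54), with 0.23 on its other probe set, and Ndufv3 at 0.53.

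From day 6 to day 8 with MPA the genes were again lower as a group. Of 82 measured, 71 were lower (52.3% of all genes), with a median of -0.29, and 10 were lower and 3 higher by 1.5-fold or more (18.5% and 16.9% of all genes). The medians of complexes I to V were -0.35, -0.16, -0.21, -0.15 and -0.29. Ndufa9, a matrix arm subunit near the ubiquinone site, was 1.71-fold lower (6142 and 3583), and Cycs 1.64-fold lower. This comparison and those above share arrays, so their values are given side by side and not as repeats of each other.

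The MPA differences of both days were then set side by side. Of the 79 genes above the floor on all arrays, 41 were lower with MPA at both days (25.7% of all genes), 6 were higher at both (27.6% of all genes), 25 were higher at day 6 and lower at day 8, and 7 the reverse. The 4 arrays of days 6 and 8 allow 1 test, a limma fit with day and MPA as terms. Its error starts from how far the MPA differences of both days disagree. With 1 residual degree of freedom, eBayes draws that error towards the error of other genes of similar signal. The SE and p-values below therefore do not rest on a gene's own 4 signals alone. In that fit, with Benjamini-Hochberg adjustment over 11599 genes, 0 of 83 respiratory chain genes had an adjusted p under 0.05, and 1 gene did among all. At an unadjusted p under 0.05 there were 2 of 83 (2.41%), against 6.37% of all genes, and with the other 11 settings of the fit between 0 and 2. Those were Ndufa13, a membrane arm subunit also known as GRIM-19, and Ndufs8, an iron-sulfur subunit next to Ndufs7. Ndufa13 gave 11050, 10738, 7223, 8649 and 7159, so both MPA arrays were below all 3 controls. Its fitted limma difference was -0.42 (SE 0.172, unadjusted p = 0.0372, adjusted p = 0.749). Ndufs8 gave 8333, 9110, 6489, 5968 and 4784, with MPA lower than the control of the same day both times. Its limma difference was -0.40 (SE 0.174, unadjusted p = 0.0463, adjusted p = 0.772), and its second brightest probe set differed by -0.52 and -0.39 at the 2 days. Among its remaining 4 probe sets, 2 had negative differences each time (-0.34 and -0.03, and -0.20 and -0.41) and 2 had positive ones (0.18 and 0.03, and 0.41 and 0.30), so the probe sets of Ndufs8 disagree. No respiratory chain gene passed 1.5-fold one way on both days.

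**Figure D4:**
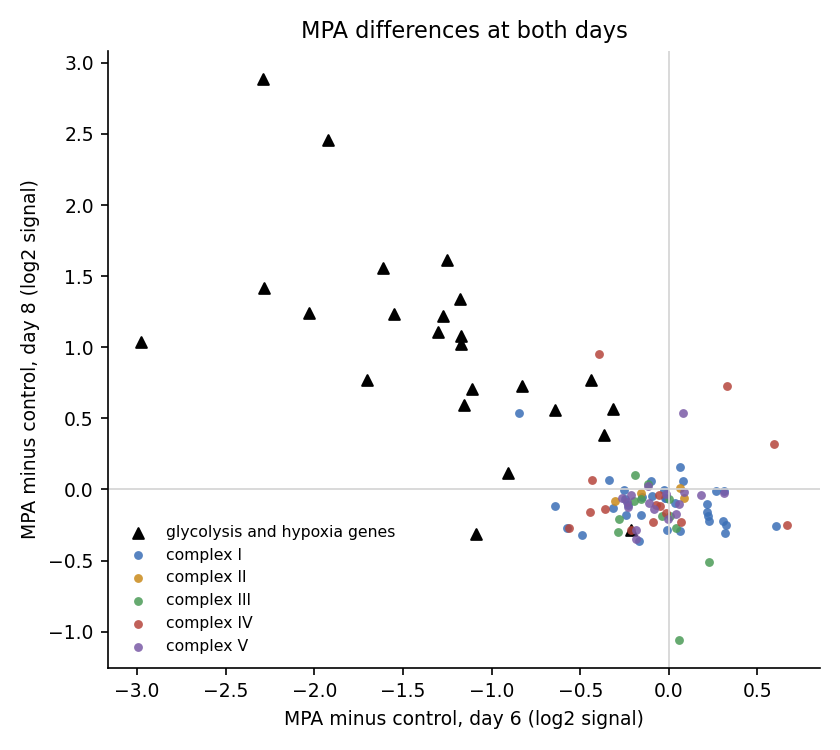
MPA minus control in log2 signal at day 6 (horizontal axis) and day 8 (vertical axis) for respiratory chain genes by complex (points) and glycolysis and hypoxia genes (triangles), 1 array per group. Respiratory chain genes sit near the origin and mostly under the horizontal line, with 68 of 82 lower at day 8. Most triangles lie to the upper left, lower at day 6 and higher at day 8.

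The widest swings were in Cox7a1 and Cox6b2, isoforms that replace a common subunit in particular tissues, and most such isoforms were dim. Wide swings were not limited to isoforms. The common subunit Cox7c, dim here, ranged over 2.62-fold and Ndufv3 over 2.57-fold, against 2.24-fold for the isoform Cox8c. Cox7a1, the heart and skeletal muscle form of Cox7a, gave 466, 379, 603, 103 and 3.51. It was 1.59-fold higher with MPA at day 6, and its day 8 control was 4.51-fold under day 5. With MPA at day 8 it was under the floor, so that the drop from the day 6 MPA array was at least 6.95-fold. Cox6b2, the testis form of Cox6b, gave 1600, 1124, 1411, 503 and 832. Its day 8 control was 3.18-fold under day 5, and it was higher with MPA at both days, 1.26-fold and 1.65-fold. Cox8c, another testis form, gave 286, 224, 152, 339 and 281, lower with MPA at both days (1.48-fold and 1.21-fold). Cox6a2, a heart and muscle form, was above the floor at 87.3, 114 and 168 on the day 5, day 6 control and day 8 MPA arrays, which makes it at least 1.94-fold higher with MPA at day 8. A second Cox6a2 probe set was above the floor only in the day 8 control (169), the opposite direction.

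The remaining isoforms gave little signal. Cox4i2, the lung form that hypoxia is known to raise, was at 101, 101 and 106 in the controls and under the floor with MPA. Ndufa4l2, a hypoxia-inducible relative of Ndufa4, was above the floor only at day 6, at 159 without and 206 with MPA. Ndufa4 itself gave 18058, 15306, 15064, 12956 and 12434, stepping down with time and hardly apart between MPA and control. Cox7a2l, which helps complexes III and IV to associate, gave 11097, 10205, 7552, 10496 and 10967, and the day 6 MPA array was the low one. Muscle markers did not follow Cox7a1: the 20 cardiac and skeletal muscle markers, 5 of them never above the floor, summed to 987, 3118, 5113, 4456 and 9242, and Myod1 and Myog gave at most 103 and 11.6. Their part in the isoform values was not tested.

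**Figure D5:**
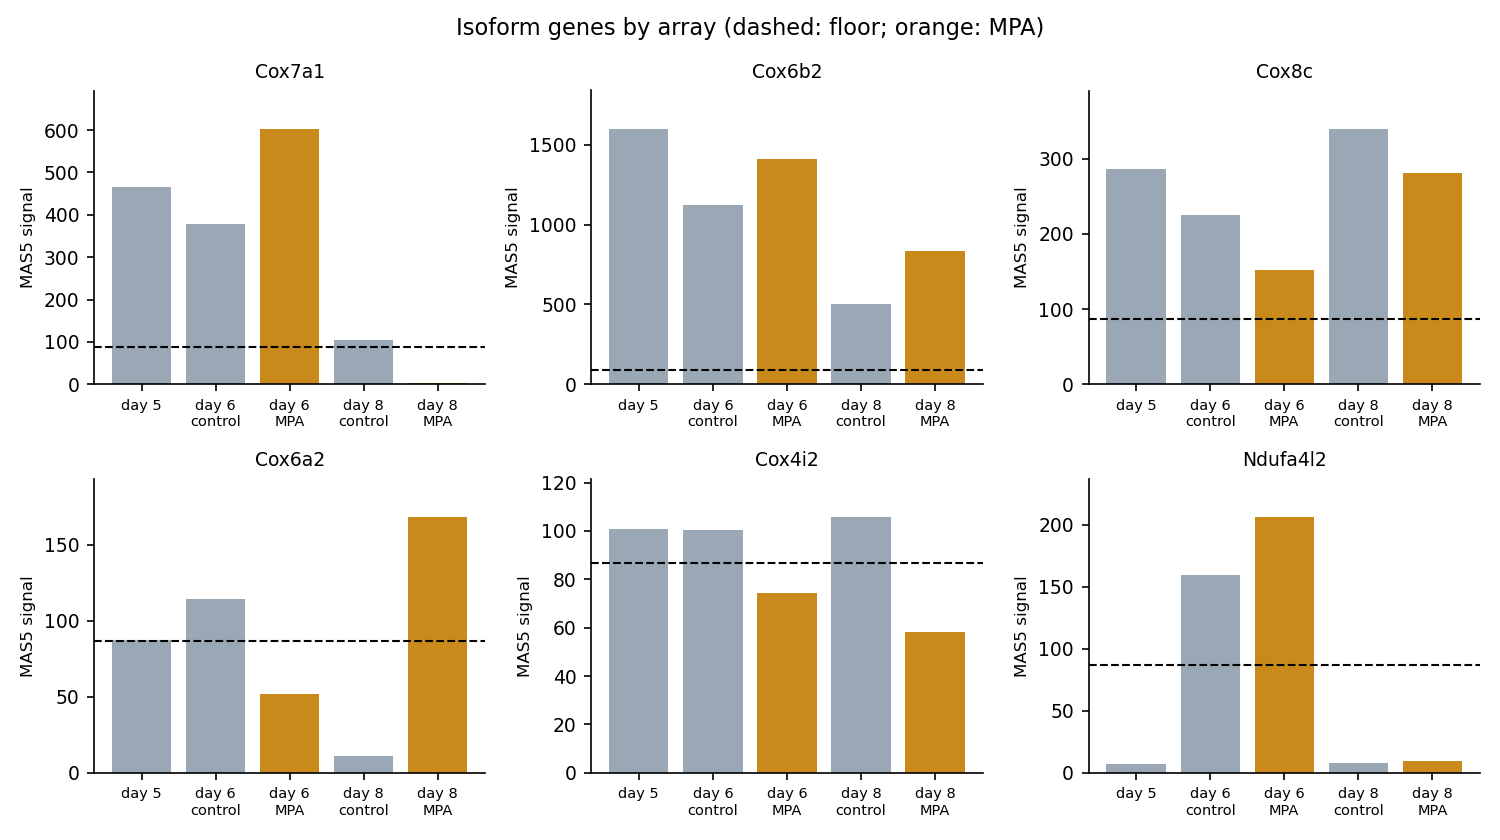
Signal (vertical axis, linear, a separate scale in each panel) of 6 isoform genes on the 5 arrays, grey for untreated and orange for MPA, with the floor of 86.8 dashed and 1 array per bar. Cox7a1 and Cox6b2 are lower on both day 8 arrays than on the other 3, Ndufa4l2 is above the floor only at day 6, and Cox4i2 and Cox6a2 hover around the floor.

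Genes around the respiratory chain were read from lists, with counts and medians only. For these lists, here and in the paragraphs that follow, the shares of lower genes over all genes are the background. They were 47.4% from day 5 to day 8 in the controls, and with MPA 48.5% at day 6 and 51.9% at day 8. Among the genes as bright as the respiratory chain genes they were 56.0%, 58.2% and 58.4%. Of 47 assembly factors, 44 were on the array. Relative to day 5, 26 of 43 measured were lower in the day 8 control (median -0.20), and with MPA at day 8, 27 of 43 (median -0.09). Nubpl, which delivers iron-sulfur clusters to complex I, gave 2600, 2969, 2603, 759 and 918, 3.43-fold lower in the day 8 control than at day 5. Ndufaf6, a complex I assembly factor, gave 1952, 797, 928, 685 and 379, 2.85-fold lower. Both fold differences exceeded that of each of the 33 complex I genes measured there. Of the import receptors and carriers, 16 of 19 were lower with MPA at day 8 (median -0.09), with Tomm70a, a receptor of the outer membrane, at 3222 and 1771. Slc25a4, the adenine nucleotide carrier of muscle and heart, was higher with MPA at day 6 (18140 and 35240).

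Regulators of mitochondrial gene expression moved in both directions. Between the day 5 and day 8 controls, 10 of 19 measured were higher and 9 lower (median 0.04), and with MPA at day 8, 12 of 19 were lower (median -0.23). Nrf1, whose core motif was searched above, gave 1115, 937, 500, 412 and 528, so its day 8 control was 2.71-fold under day 5 and MPA was 1.88-fold under the control at day 6. Gabpb1, the partner subunit of the ETS factor GABP, gave 753, 1020, 532, 570 and 346, lower with MPA at both days. Tfam, which packages and transcribes mitochondrial DNA, gave 2839, 2838, 3050, 3103 and 2499, nearly level in the controls. Side by side with the motifs, the 26 genes with a match in their promoter had a day 8 against day 5 median of -0.41 (23 lower), and the 41 measured genes without one -0.25 (29 lower). At day 8 with MPA the medians were -0.08 and -0.11. Mitochondrial DNA was represented by ND5, a membrane arm subunit of complex I, at 4997, 4345, 6982, 7919 and 7150, which was 1.58-fold higher in the day 8 control than at day 5, opposite to the nuclear complex I genes.

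The citric acid cycle, which feeds the chain, shared the direction at day 8 with MPA. There, 16 of 17 measured enzymes were lower with MPA (median -0.30), and 11 of 17 at day 6 (median -0.03). In the controls 10 of 17 were lower on day 8 than on day 5 (median -0.13), and the list was mixed: Idh3a, of the NAD-linked isocitrate dehydrogenase, gave 6981 and 2914, whereas Idh2, the NADP-linked one, gave 2370 and 4668. Cs, citrate synthase, was also higher on day 8 (7933 and 13713). Suclg2, of succinyl-CoA ligase, was lower with MPA at both days, 1.53-fold and 1.81-fold.

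Glycolysis and hypoxia genes changed on a different scale and in a different order. In the controls 23 of 24 measured were lower at day 8 than at day 5, with a median of -1.78. With MPA 24 of 25 were lower at day 6 (median -1.17) and 22 of 24 were higher at day 8 (median 1.03). Ldha, which makes lactate from pyruvate, gave 86330, 58634, 26010, 20365 and 41354. Pdk1, which closes the entry of pyruvate into the citric acid cycle, gave 4016, 4378, 1429, 848 and 2494. In both, the day 8 control was the lowest array and MPA was low at day 6 and back up at day 8. Cox4i2 and Ndufa4l2 belong to this list as well as to the respiratory chain genes, and both, dim here, were exceptions in it. Ndufa4l2 was the 1 gene of the list higher with MPA at day 6 (0.37). Cox4i2 was the 1 gene higher at day 8 than at day 5 (0.07), and it was lower with MPA at day 8 (-0.28, a bound). Higd1a, a hypoxia gene that associates with complex IV, gave 18880, 20837, 9260, 5239 and 11040, the same order of arrays as Pdk1. Ndufv3 had its 5 arrays in that order too, a likeness picked out after its values were seen. No list above was tested.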

How the data were processed

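Per the labels' protocols, total RNA of 5 samples, 1 per group, (100 ng each) was turned into biotinylated cRNA by 3' IVT labelling, and each sample was run on 1 Affymetrix mouse array. The authors deposited 1 linear signal intensity per probe set and array, made with MAS5 per the submitters' processing notes; no version or filter is named in the labels. The 2% trimmed mean was 500 on each array.

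Of 45101 probe sets, 64 were controls, 34945 had 1 gene symbol in the platform annotation, 932 had several and 9160 were unnamed here; the last 2 kinds were left out. Of 175 probe sets matching the symbol rule, the one with the highest mean signal stood for each of the 86 genes, of which 51 had several and 46 rested on probe sets named _s_at, _x_at or _a_at, which may bind several transcripts. All 86 symbols equal those of RefSeq.

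The floor (86.8) was the median signal over the 5 arrays, controls left out; lower intensities were set to it before log2. A gene was measured where at least 1 of 2 arrays lay above the floor, and "at least" marks a fold with 1 array under it. Low genes' folds are understated. Differences of 1.5-fold were counted. The limma fit (limma 3.58.1, R 4.3.3; lmFit, eBayes with trend and robust) used the 4 arrays of days 6 and 8, on genes with 2 or more of the 4 signals above the floor, with 1 residual degree of freedom and an adjusted p under 0.05, and was tested on simulated data. The number of arrays limits the precision. Other steps used Python 3.11.15, numpy 2.4.6 and pandas 2.3.3. Alternatives covered normalization, floor, probe set choice, member list, fold and fit. The members, lists and tests were chosen with earlier results of these data known. Named genes were isoform sets, catalytic subunits, up to 3 genes per complex or list with the largest mean MPA or day 8 against day 5 control difference, and members as needed; other genes named from lists were picked after their values were seen.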

Additional observations from a re-analysis of the deposited data

Results flagged for a closer look

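The glycolysis and hypoxia genes and Ndufv3 stood out because the MPA difference had opposite signs at the 2 days. The median log2 difference of the glycolysis and hypoxia list was -1.17 at day 6 and 1.03 at day 8. Ndufv3 was at -0.84 at day 6 and 0.53 at day 8. With 1 array per group, the difference between the days was not tested in either case.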

How the results depend on the processing

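No paired analysis was possible because each group had 1 array and the labels carry no replicate numbers, so that no block by replicate could be fitted. The limma fit sets MPA against the control of the same day through its day term, and without that term 0 respiratory chain genes were called too. With 1 array per group no replicate could be left out, and dim genes are limited by the signal over the floor. Medians in this paragraph are log2 differences minus that of all genes. Each alternative kept the members' median negative in all 6 comparisons except quantile normalization in MPA against control at day 6, where it was 0.029 (-0.07 as reported). Quantile normalization also gave 0.019, 0.112 and 0.049 there for complexes I, IV and V. It moved the members' median to -0.17 from day 5 to 8 (-0.34 as reported) and to -0.12 from day 6 to 8 (-0.26), and leaving out probe sets named _s_at, _x_at or _a_at moved the former to -0.44. Leaving those out gave complex II 0.047 with MPA at day 6 and 0.0099 from day 5 to 6, and complex III 0.092 from day 5 to 6. The mean over all probe sets of a gene gave complex II 0.037 with MPA at day 8 and 0.079 from day 5 to 6, and complex III 0.027 from day 5 to 6. Under these settings the sign of those complex medians turned, and the cause was not tested. Counts of genes 1.5-fold or more apart changed as follows. With MPA at day 6 (5 as reported) there were 0 at 2-fold, 3 with the floor at the 65th percentile, 2 on log2(signal + floor) and 3 with the mean over probe sets. With MPA at day 8 (3) there were 1 at 2-fold, 7 with the floor at the 25th percentile and 0 among structural subunits alone. Between days 5 and 6 (4) there were 1 at 2-fold, 2 at the 65th percentile and 2 among structural subunits. Between days 5 and 8 (13) there were 3 at 2-fold and 7 after quantile normalization. Between days 6 and 8 there were 4 at 2-fold and 5 among structural subunits (9), and with MPA 2 and 7 (13). These lower counts follow from the higher fold or the fewer genes where the setting is one of those. The limma fit called 0 respiratory chain genes in all 12 settings, with lowest adjusted p-values of 0.721 or more. The comparison with equally bright genes (mean signal of at least 2778) was chosen after seeing the data.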
